A study of Mus musculus with 12 samples.

Results

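The genes described here encode the enzymes and carriers of mitochondrial fatty acid oxidation, from the activation of a fatty acid to the handover of its electrons. The list held 38 genes, and a gene was taken as measured where the array had a probe set annotated with that symbol alone; of several such probe sets, the one with the highest mean over all arrays was used. By this rule 34 of the 38 were measured, among 22180 genes in all. Acsl1, Acsl3, Cpt1b and Echdc1 were not measured by a probe set of their own and were not analysed here. RNA of brown adipose tissue came from male mice of 10 weeks on standard chow, in 4 groups of 3 arrays. The groups were Zbtb7b knockout (KO) mice kept at 4 °C for 4 h (KO cold), wild-type mice kept likewise (WT cold), KO mice at 22 °C (KO room temperature) and wild-type mice at 22 °C (WT room temperature). Zbtb7b encodes a zinc finger transcription factor, and the labels name neither the allele nor a Cre driver. The sample titles call the 3 arrays of each group biological replicates. Another label field numbers pools and names liver and a different knockout, so how many animals stand behind an array is unknown. P-values measure only how these samples vary, which may be technical.

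Inside the cell a long-chain fatty acid is first joined to coenzyme A by an acyl-CoA synthetase. Carnitine palmitoyltransferases and carnitine carry the acyl group into the mitochondrion, a step held back by malonyl-CoA. There each turn of a spiral removes an acetyl-CoA, through an acyl-CoA dehydrogenase, a hydratase, a hydroxyacyl-CoA dehydrogenase and a thiolase, while isomerases and a reductase prepare unsaturated acyl chains and electron transfer flavoprotein takes the electrons to the respiratory chain. Brown fat burns fatty acids to make heat, and fatty acids also open the uncoupling protein Ucp1. Not every gene of the list acts in the mitochondrial matrix: Slc22a5 is a carnitine transporter of the plasma membrane, Cpt1c is a neuronal relative of the endoplasmic reticulum, Acsl4 lies largely outside mitochondria, and Acad11 and mouse Eci3 are peroxisomal.

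Values are log2 signals. On every array Ucp1, the defining gene of brown fat, lay between 11.55 and 12.95, and the liver gene Alb between 1.21 and 2.75. Alb is 1 of 17 hepatocyte genes, of which Cyp2e1 lay between 10.2 and 11.9, Pck1 between 11.5 and 12.3 and Hpx between 2.6 and 5.9. None of the other hepatocyte genes exceeded 4.9. The mean of the 17 was 3.51 to 3.55 in KO cold and 3.48 to 3.61 in WT cold. At room temperature this mean was 3.32 to 3.36 in KO and 3.42 to 3.46 in WT, without overlap. Zbtb7b lay between 2.96 and 3.62 on the KO arrays and between 4.26 and 4.76 on the WT arrays; which exons the allele removes, and whether the probes cover them, is not given. Skeletal muscle differed between arrays of one group: the mean of 21 muscle genes was 4.65 to 8.67 in KO cold, 5.41 to 8.07 in WT cold, 3.45 to 8.85 in KO room temperature and 3.02 to 6.61 in WT room temperature. The ranges of all 4 groups overlap, and the muscle creatine kinase gene Ckm ran from 3.58 to 10.47 over the 12 arrays. The part of muscle in the results was not tested beyond a fit with that mean as a covariate, which is given beside the calls it changes. KO cold replicate 1 stood apart within its group. It held the lowest of the 3 KO cold values for 27 of the 34 genes, against 48.2% of the 8475 genes whose signal averaged 5 or more, and the mean over the 34 genes was 8.48 on it and 8.78 and 8.84 on the other KO cold arrays. The mean of 12 brown adipocyte genes was 9.66 to 9.72 in KO cold, 9.69 to 9.79 in WT cold, 8.30 to 8.57 in KO room temperature and 8.95 to 9.09 in WT room temperature, so that it was lower in KO without overlap at room temperature. The largest gaps there were in Dio2 (4.3 to 5.3 in KO, 8.3 to 8.5 in WT) and Elovl3 (2.9 to 4.2 in KO, 5.3 to 6.1 in WT). Ucp1, Cidea, Otop1 and Ppargc1a were also lower in KO without overlap at room temperature. For Ppargc1a this was by a hair, with the highest KO array at 9.15 and the lowest WT array at 9.151. Prdm16, Ebf2, Cox8b, Cox7a1, Zic1 and Lhx8 overlapped between KO and WT at room temperature. In the cold Prdm16, Ebf2, Otop1 and Ppargc1a were higher in KO without overlap. Elovl3 was lower there without overlap, and the others of the 12 overlapped. Ucp1 itself stood at 12.01, 11.61 and 11.55 on the KO room-temperature arrays and 12.68, 12.41 and 12.50 on the WT room-temperature arrays. The 14 macrophage genes had a mean of 6.43 to 7.20 in KO cold, 6.39 to 6.74 in WT cold, 6.45 to 6.66 in KO room temperature and 5.72 to 6.11 in WT room temperature, without overlap between KO and WT at room temperature. The mean of 9 T cell genes was 2.97 to 3.34 in KO cold, 3.22 to 3.90 in WT cold, 3.24 to 3.80 in KO room temperature and 2.89 to 3.18 in WT room temperature. That of 12 neutrophil genes was 1.99 to 3.83 in KO cold, with the highest value on replicate 3, 2.04 to 2.23 in WT cold, 2.30 to 2.66 in KO room temperature and 2.10 to 2.29 in WT room temperature. Both were higher in KO without overlap at room temperature. The neutrophil means there lay within or below the array medians of 2.63 to 2.83 over all probe sets, so that signal was low. Of the T cell genes only Cd8a and Cd8b1 were each higher in KO without overlap at room temperature. Of the neutrophil genes S100a8, Cxcr2 and Elane were, Camp was lower without overlap, and the others overlapped. The mean of 10 endothelial genes was 7.95 to 8.19 in KO cold and 8.22 to 8.27 in WT cold, and overlapped at room temperature. In KO cold Tek and Egfl7 were lower without overlap, Cdh5 higher, and the other endothelial genes overlapped. The mean of 7 white adipocyte genes overlapped at both temperatures. In WT cold it was 6.89 on replicate 2 and 5.75 and 5.82 on the others. Of the 7, Nnat was higher in KO without overlap at room temperature, and Lep and Hoxc9 lower in the cold. The part of these differences in the results was not tested.

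**Figure D1:**
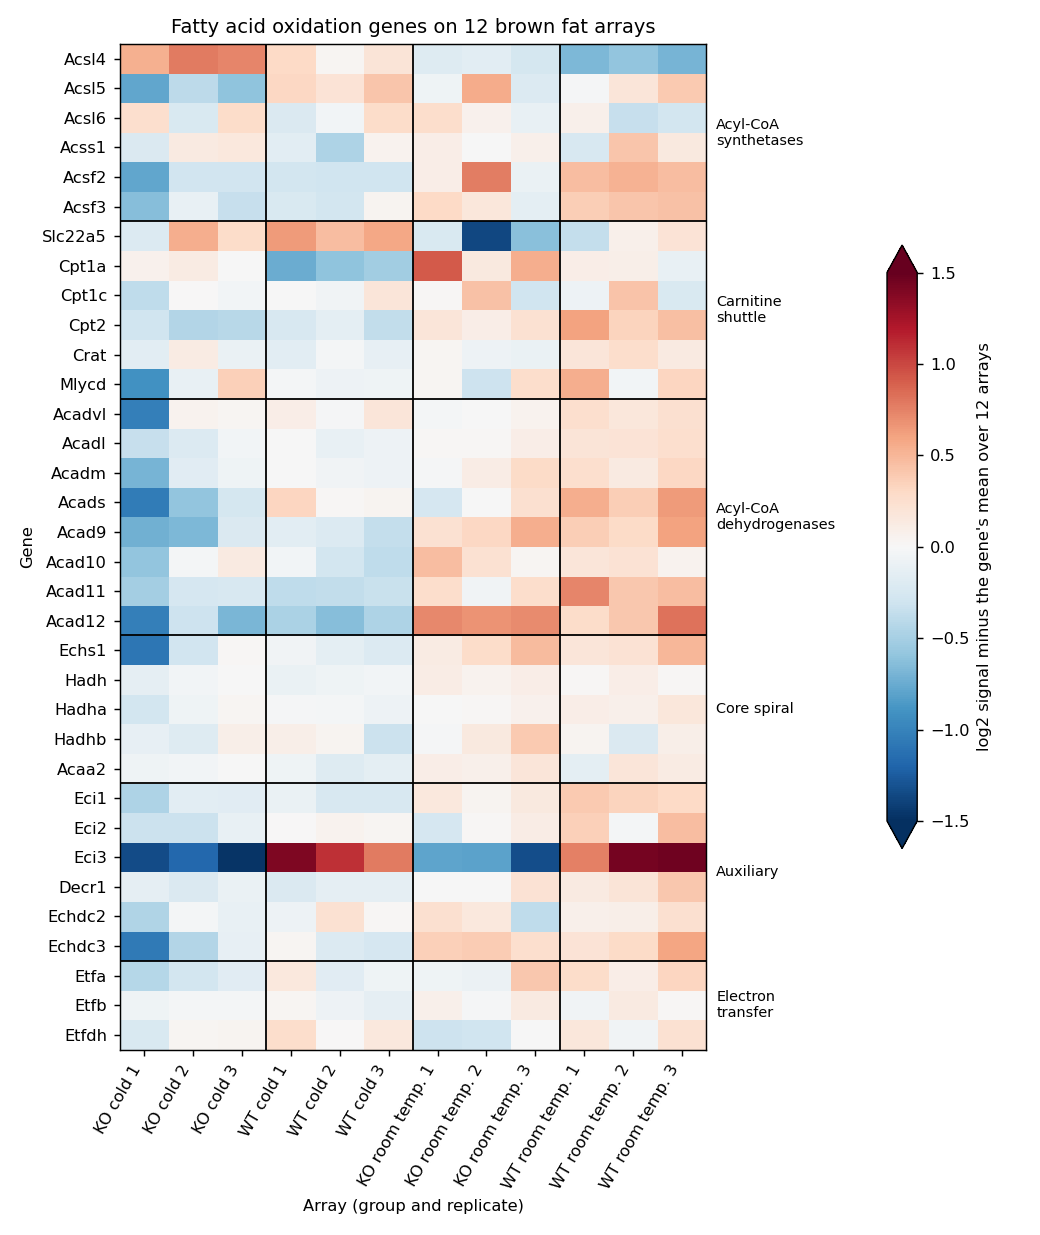
Each row is 1 of the 34 measured genes and each column 1 of the 12 arrays; colour gives the log2 signal minus the gene's own mean over the 12 arrays, from blue (lower) to red (higher), and colours end at 1.5 in either direction. Eci3 is blue on all 6 KO arrays and red on all 6 WT arrays, Acsl4 is reddest on the KO cold arrays, and KO cold replicate 1 has the lowest value of the 12 arrays for all 8 acyl-CoA dehydrogenases.

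Few of these genes differed between KO and WT, and the largest difference was in Eci3. Averaged over both temperatures, 2 of the 34 genes were higher in KO (Acsl4 and Cpt1a) and 2 were lower (Eci3 and Acads) at an adjusted p under 0.05, where 0.794% of all genes were higher and 0.834% lower. Among the genes averaging 5 or more 1.42% were higher and 1.58% lower, against 2 and 2 of the 32 listed genes that reached that level. At each temperature alone 1 of 34 passed, Eci3, which was lower; of all genes 0.284% were lower at room temperature (0.266% higher) and 0.55% in the cold (0.361% higher). The median difference of the 34 genes over both temperatures was -0.17, with 10 above 0 and 24 below, against a median of 0.003 over all genes. Without KO cold replicate 1 this median was -0.087, with 24 below 0, and that of the cold groups alone was 0.001, against -0.16 with all arrays. The genes averaging 5 or more leaned downward too over both temperatures and in the cold, with all arrays. Their median was -0.035 over both temperatures, with 56.6% below 0, and -0.088 in the cold, with 61.3% below 0. In the room-temperature groups alone their median was 0.021, with 46.1% below 0. There the 34 genes had a median of -0.12, with 24 below 0. At room temperature 2 of the 34 had all 3 KO arrays above all 3 WT arrays and 10 had them below, where 9% and 7.97% of all genes did so. In the cold these counts were 2 and 4, against 9.55% and 11.1% of all genes. In whole tissue, fewer cells of a type and less RNA per cell cannot be told apart.

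Eci3 is a delta3-delta2-enoyl-CoA isomerase, which in mice serves peroxisomes and shifts double bonds so that unsaturated chains can be oxidised. Its log2 signal was 3.86, 4.02 and 3.72 on the KO cold arrays and 6.59, 6.29 and 5.97 on the WT cold arrays. At room temperature the signal was 4.41, 4.39 and 3.86 on the KO room-temperature arrays and 5.95, 6.63 and 6.66 on the WT room-temperature arrays. The KO and WT arrays did not overlap at either temperature, and the KO values lay above the array medians of 2.63 to 2.83 over all probe sets. In KO cold against WT cold the difference was -2.42 ± 0.23 (adjusted p = 5.74e-04), a 5.35-fold lower signal, with ± giving the SE (n = 3 per group). Without cold it was -2.19 ± 0.23 (adjusted p = 9.32e-04), 4.57-fold lower. Over both temperatures it was -2.31 ± 0.16 (adjusted p = 1.98e-05), and it passed in each of the 3 comparisons under every alternative setting, the muscle covariate included (-2.34, adjusted p = 8.38e-05 over both). The interaction of genotype and temperature for Eci3 was -0.23 ± 0.32 (adjusted p = 0.833), with a 95% interval of -0.93 to 0.47.

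Eci2, the isomerase found in both mitochondria and peroxisomes, is a near relative of Eci3 and lies beside it in the mouse assembly GRCm38.p6, with 1 predicted gene between them. Probes for such relatives can share signal, which the files do not resolve. Eci2 was 7.39, 7.38 and 7.60 on the KO cold arrays and 7.72, 7.77 and 7.74 on the WT cold arrays, and 7.46, 7.73 and 7.82 on the KO room-temperature arrays and 8.06, 7.68 and 8.18 on the WT room-temperature arrays. The groups did not overlap in the cold and did at room temperature, and the difference over both temperatures was -0.30 ± 0.11 (adjusted p = 0.209). Eci1, the main mitochondrial isomerase, stood at -0.15 ± 0.085 (adjusted p = 0.452). The promoter windows of Eci3 and its neighbour are shown because Eci3 had the largest genotype difference; each covers 250 bases before to 50 after the RefSeq start site in build GRCm38.p6, and capitals mark the 50 bases from the start site on. The Eci3 window is chr13:34963760-34964059 on the minus strand with a GC content of 56.7%, and the Eci2 window is chr13:34994095-34994394 on the minus strand with 62.3%.
Eci3: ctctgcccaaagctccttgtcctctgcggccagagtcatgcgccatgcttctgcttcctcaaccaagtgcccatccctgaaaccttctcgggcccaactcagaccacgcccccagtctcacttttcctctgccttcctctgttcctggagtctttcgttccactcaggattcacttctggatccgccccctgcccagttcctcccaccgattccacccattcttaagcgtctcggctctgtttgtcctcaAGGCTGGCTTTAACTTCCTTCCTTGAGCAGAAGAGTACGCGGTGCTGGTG
Eci2: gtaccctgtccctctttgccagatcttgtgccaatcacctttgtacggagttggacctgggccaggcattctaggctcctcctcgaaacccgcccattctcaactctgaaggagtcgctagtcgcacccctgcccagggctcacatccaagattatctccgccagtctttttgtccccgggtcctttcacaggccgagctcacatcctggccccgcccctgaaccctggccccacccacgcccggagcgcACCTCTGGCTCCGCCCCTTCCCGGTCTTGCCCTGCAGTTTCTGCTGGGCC

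Acsl4, a synthetase that prefers arachidonic acid and other polyunsaturated fatty acids, was higher in KO. Its log2 signal was 7.92, 8.16 and 8.11 on the KO cold arrays and 7.69, 7.42 and 7.58 on the WT cold arrays. At room temperature it was 7.19, 7.22 and 7.12 on the KO room-temperature arrays and 6.71, 6.79 and 6.69 on the WT room-temperature arrays. Each KO group lay wholly above the WT group of the same temperature. The difference was 0.48 ± 0.084 (adjusted p = 0.0157) over both temperatures (SE, n = 6 per genotype), a 1.39-fold higher signal, with 0.50 ± 0.12 (adjusted p = 0.0743) for the cold groups and 0.45 ± 0.12 (adjusted p = 0.137) for the room-temperature groups. It passed over both temperatures under every alternative setting.

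Cpt1a encodes the liver-type carnitine palmitoyltransferase of the outer mitochondrial membrane, the step that malonyl-CoA inhibits. Its signal was 7.85, 7.92 and 7.78 on the KO cold arrays and 7.05, 7.19 and 7.28 on the WT cold arrays. The room-temperature signal was 8.72, 7.94 and 8.34 on the KO room-temperature arrays and 7.89, 7.88 and 7.68 on the WT room-temperature arrays. The KO arrays lay above the WT arrays at both temperatures, narrowly so at room temperature, where the lowest KO array stood at 7.94 and the highest WT array at 7.89. Over both temperatures the difference was 0.60 ± 0.12 (adjusted p = 0.0301), 1.52-fold higher in KO. It did not pass with the muscle covariate (0.58, adjusted p = 0.0708) or when 1 array was left out in 8 of 12 ways (adjusted p of 0.0515 to 0.0903).

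Acads, the dehydrogenase for short acyl chains, was lower in KO. It stood at 8.87, 9.32 and 9.66 on the KO cold arrays and 10.24, 9.94 and 9.96 on the WT cold arrays. Without cold it was 9.66, 9.91 and 10.16 on the KO room-temperature arrays and 10.46, 10.29 and 10.56 on the WT room-temperature arrays. The KO arrays lay below the WT arrays at both temperatures. The difference over both was -0.64 ± 0.14 (adjusted p = 0.0404), 1.56-fold lower, and it did not pass with the muscle covariate (-0.55, adjusted p = 0.0843) or when 1 array was left out in 9 of 12 ways (adjusted p of 0.0562 to 0.114).

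**Figure D2:**
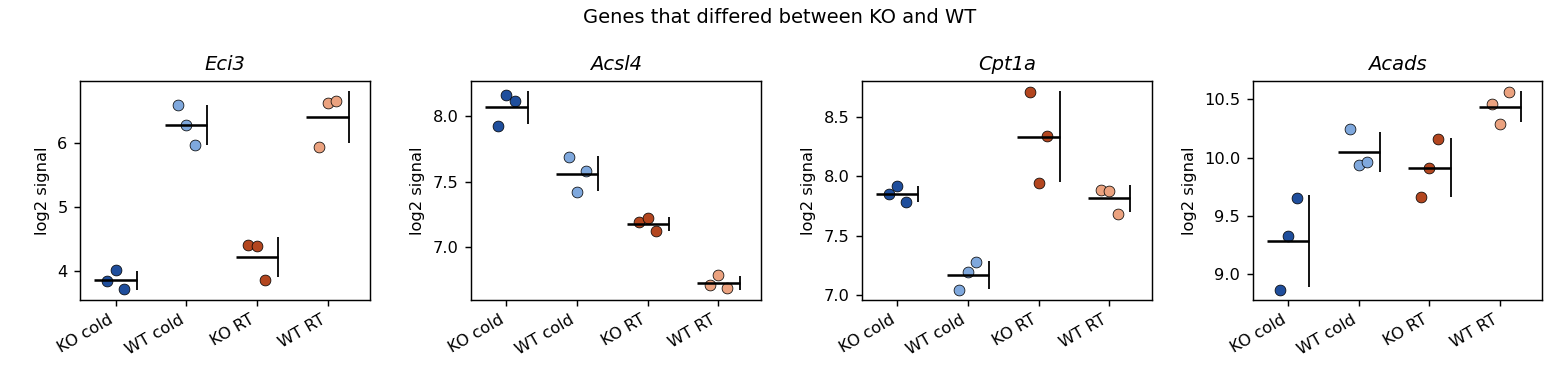
Points are the log2 signals of single arrays in the 4 groups, the horizontal bar is the group mean and the vertical line the SD (n = 3); the vertical axes differ between genes and do not start at 0. Eci3 is at most 4.41 on the KO arrays and at least 5.95 on the WT arrays, and Acsl4 and Cpt1a are higher and Acads lower in KO at either temperature.

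The other 30 genes did not pass in any comparison of KO with WT. Of the acyl-CoA synthetases, Acsl5, which is found on mitochondria and the endoplasmic reticulum, came closest. It was 7.47, 7.85 and 7.64 on the KO cold arrays and 8.56, 8.45 and 8.67 on the WT cold arrays, without overlap, and 8.18, 8.80 and 8.04 on the KO room-temperature arrays and 8.22, 8.43 and 8.64 on the WT room-temperature arrays, with overlap. Its difference was -0.90 ± 0.20 (adjusted p = 0.0535) between the cold groups and -0.09 ± 0.20 (adjusted p = 0.915) between those kept at room temperature. Slc22a5, which brings carnitine into the cell, stood at -0.54 ± 0.19 (adjusted p = 0.2) over both temperatures and Cpt2, which returns the acyl group from carnitine to coenzyme A, at -0.21 ± 0.084 (adjusted p = 0.249). None of the 5 genes of the core spiral passed. Their differences over both temperatures ran from -0.16 for the hydratase Echs1 up to 0.094, and the 95% intervals of all 5 spanned 0, with outermost bounds of -0.52 and 0.34. Etfdh, which passes electrons from the flavoprotein to ubiquinone, stood at -0.26 ± 0.099 (adjusted p = 0.242), while Etfb stood at 0.023.

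**Figure D3:**
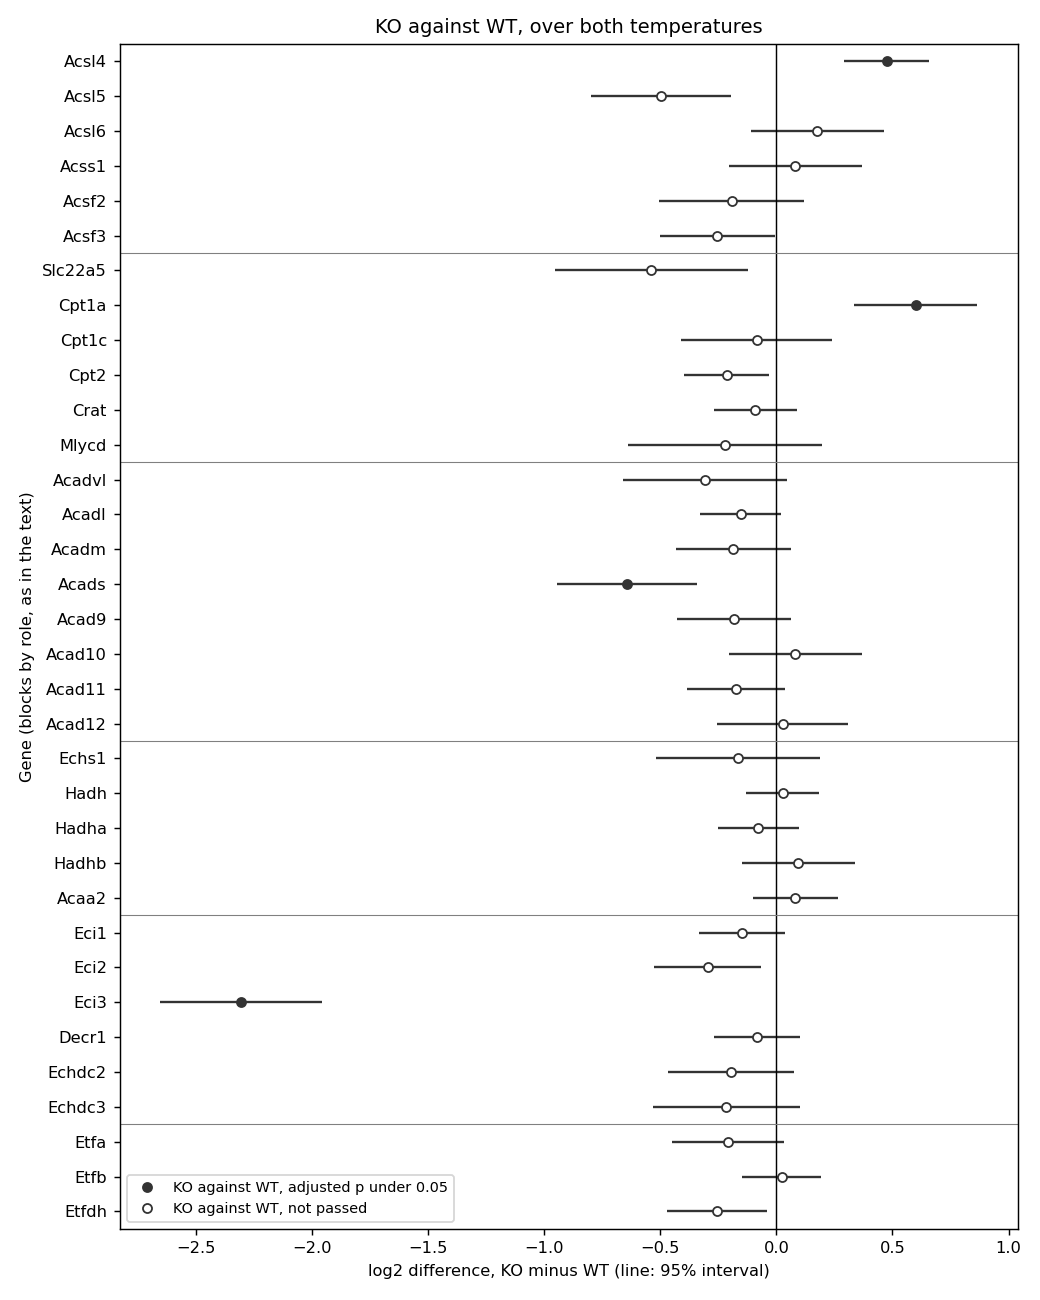
Each point is the log2 difference of KO minus WT over both temperatures for 1 gene and the line its 95% interval; filled points passed at an adjusted p under 0.05 and open points did not, and the blocks follow the roles used in the text. Eci3 stands alone at -2.31, Acsl4 and Cpt1a are the filled points to the right of 0, and Acads is at -0.64.

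After 4 h of cold the genes of fatty acid oxidation moved mostly downward. Averaged over both genotypes, 15 of the 34 were lower in the cold and 2 were higher (Acsl4 and Slc22a5), where 14.3% of all genes were lower and 12.9% higher. Among the 8475 genes whose signal averaged 5 or more the background was higher: 25.9% were lower and 26% higher, against 15 and 2 of the 32 listed genes that reached that level. The median difference of the 34 genes was -0.26 with 30 below 0, against a median of -0.009 over all genes. In KO mice 10 fell and 2 rose (10.8% and 8.34% of all genes), and in WT mice 9 fell and 1 rose (7.98% and 9.39%). All 3 cold arrays lay below all 3 room-temperature arrays for 18 of the 34 genes in KO and for 18 in WT, where 17.2% and 18% of all genes did so, and above them for 2 in KO and 2 in WT (14.4% and 18.8% of all genes). Of the 12 genes called in KO and the 10 called in WT, 7 were called in both, or 58.3% and 70% of the lists, and these 7 moved the same way. Over all genes the shared calls were 58.8% of those in KO and 65% of those in WT, so the shares for the listed genes lie near the background. They were Acsl4, Acsf2, Cpt2, Acad9, Acad11, Acad12 and Eci1. The values over both genotypes (n = 6 per temperature) rest on the same arrays as those of each genotype. Without KO cold replicate 1, 6 genes passed in KO instead of 12, since Acsl5, Acsf2, Acads, Acad11, Echs1 and Eci1 no longer did; over both genotypes 15 passed instead of 17. Without KO room-temperature replicate 2, 7 passed in KO. In WT 6 passed without WT room-temperature replicate 2, WT cold replicate 1 or WT cold replicate 2.

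**Figure D4:**
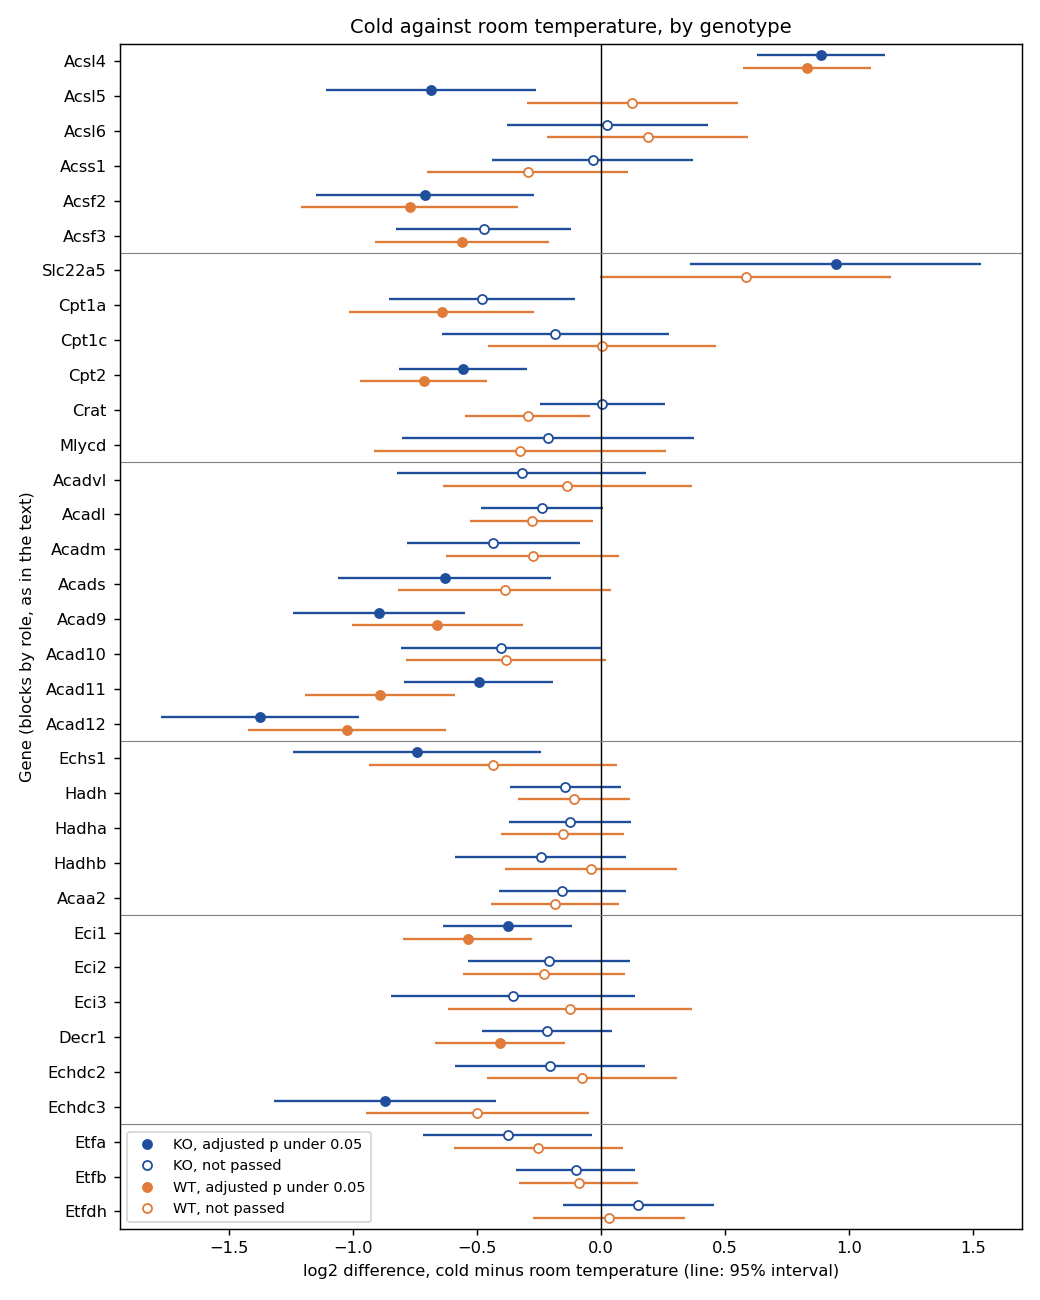
For each gene the upper, blue point is the log2 difference of cold minus room temperature in KO and the lower, orange point that in WT, with 95% intervals as lines; filled points passed at an adjusted p under 0.05. Most points lie left of 0, with Acad12 furthest at -1.38 in KO and -1.03 in WT, and Acsl4 and Slc22a5 lie to the right.

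Among the synthetases, Acsl4 rose in the cold in both genotypes. With the values given above, the cold arrays of each genotype lay wholly above its room-temperature arrays, and the differences were 0.89 ± 0.12 (adjusted p = 3.00e-04) in KO and 0.83 ± 0.12 (adjusted p = 5.35e-04) in WT. Acsf2, a mitochondrial synthetase for medium chains, fell. It was 7.27, 7.76 and 7.76 on the KO cold arrays and 8.15, 8.81 and 7.95 on the KO room-temperature arrays. In WT it was 7.77, 7.75 and 7.75 on the WT cold arrays and 8.52, 8.57 and 8.51 on the WT room-temperature arrays. Neither pair of groups overlapped, and the differences were -0.71 ± 0.20 (adjusted p = 0.0269) in KO and -0.77 ± 0.20 (adjusted p = 0.0192) in WT. The KO call did not hold without KO room-temperature replicate 2 (-0.46, adjusted p = 0.0913) or KO cold replicate 1 (-0.55, adjusted p = 0.0992), or in the 6 KO arrays alone (adjusted p = 0.121). The WT call did not hold when 1 array was left out in 4 of 12 ways (adjusted p of 0.0552 to 0.0596).

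Acsf3, the mitochondrial malonyl-CoA synthetase, was 7.13, 7.65 and 7.43 on the KO cold arrays and 7.54, 7.50 and 7.81 on the WT cold arrays. At room temperature it was 8.07, 7.94 and 7.63 on the KO room-temperature arrays and 8.14, 8.18 and 8.21 on the WT room-temperature arrays. Cold and room-temperature arrays overlapped in KO and not in WT. It fell over both genotypes (-0.52 ± 0.11, adjusted p = 0.00433). In KO it stood at -0.48 ± 0.16 (adjusted p = 0.0596), and in WT it fell (-0.56 ± 0.16, adjusted p = 0.0311), though not in 5 of 12 fits without 1 array (adjusted p up to 0.111). Acsl5, whose cold arrays lay below the room-temperature arrays in KO and overlapped them in WT, fell in KO (-0.69 ± 0.20, adjusted p = 0.0268) and stood at 0.13 ± 0.20 (adjusted p = 0.748) in WT. The KO call for Acsl5 did not hold without KO room-temperature replicate 2 (-0.46, adjusted p = 0.0983), KO cold replicate 1 (-0.60, adjusted p = 0.088) or KO cold replicate 3 (-0.68, adjusted p = 0.0576). Nor did it hold in the 6 KO arrays alone (adjusted p = 0.0934). Acss1, the mitochondrial acetyl-CoA synthetase, and Acsl6, with a signal of 2.29 to 2.92 on all arrays, did not pass in any comparison.

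In the carnitine shuttle the transporter Slc22a5 rose over both genotypes, while the transferases Cpt1a and Cpt2 fell. Slc22a5 was 7.95, 8.69 and 8.42 on the KO cold arrays and 7.92, 6.78 and 7.52 on the KO room-temperature arrays. In WT it was 8.79, 8.61 and 8.73 on the WT cold arrays and 7.79, 8.23 and 8.36 on the WT room-temperature arrays. The cold arrays lay above the room-temperature arrays in each genotype. The rise passed over both genotypes (0.77 ± 0.19, adjusted p = 0.00929) and in KO (0.95 ± 0.27, adjusted p = 0.0274), and stood at 0.58 ± 0.27 (adjusted p = 0.176) in WT. In KO the value without room-temperature replicate 2, the lowest array at 6.78, was 0.63, adjusted p = 0.102, and the call was also lost without KO room-temperature replicate 3 (1.00, adjusted p = 0.0529), KO cold replicate 2 (0.78, adjusted p = 0.104) or KO cold replicate 3 (0.91, adjusted p = 0.0662). The 6 KO arrays alone did not give this call either (adjusted p = 0.098).

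Cpt2 was 10.41, 10.28 and 10.29 on the KO cold arrays and 10.90, 10.82 and 10.94 on the KO room-temperature arrays. In WT mice it was 10.47, 10.56 and 10.35 on the WT cold arrays and 11.32, 11.04 and 11.17 on the WT room-temperature arrays. These groups did not overlap, and the difference of -0.56 ± 0.12 (adjusted p = 0.00556) in KO and -0.72 ± 0.12 (adjusted p = 0.00133) in WT passed under every alternative setting. Cpt1a fell over both genotypes (-0.56 ± 0.12, adjusted p = 0.00377). In KO it stood at -0.48 ± 0.17 (adjusted p = 0.0721), with cold arrays at most 7.92 and room-temperature arrays at least 7.94. In WT it fell (-0.64 ± 0.17, adjusted p = 0.0216), but not when 1 array was left out in 4 of 12 ways (adjusted p of 0.0578 to 0.0844). Crat, which makes acetylcarnitine, Mlycd, which degrades malonyl-CoA, and Cpt1c did not pass. Crat stood at 0.004 ± 0.12 (adjusted p = 0.987) in KO and at -0.30 ± 0.12 (adjusted p = 0.105) in WT, where it was 11.53, 11.65 and 11.56 on the WT cold arrays and 11.87, 11.94 and 11.82 on the WT room-temperature arrays, without overlap. A dimmer probe set of Acsl6, Acss1 and Crat each did not pass either, and it had the opposite sign to the one used in KO against WT over both temperatures.

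Of the 8 acyl-CoA dehydrogenases 7 were lower over both genotypes and 0 higher, with a median of -0.45, where 14.3% of all genes and 25.9% of those averaging 5 or more were lower. Within one genotype 4 of 8 fell in KO and 3 of 8 in WT, and 4 of the 7 (Acads, Acadl, Acadm and Acad10) did not pass over both genotypes with the muscle covariate. Acad12, a gene next to Acad10 with no other annotated gene between them, had the largest fall. It was 4.07, 4.78 and 4.40 on the KO cold arrays and 5.81, 5.77 and 5.80 on the KO room-temperature arrays. In WT mice the signal was 4.62, 4.45 and 4.63 on the WT cold arrays and 5.37, 5.50 and 5.91 on the WT room-temperature arrays. The cold arrays of either genotype lay wholly below the room-temperature arrays. The differences were -1.38 ± 0.18 (adjusted p = 2.95e-04) in KO, 2.60-fold lower, and -1.03 ± 0.18 (adjusted p = 0.0022) in WT, 2.04-fold lower, and both passed under every alternative setting. Acad9, which also serves the assembly of respiratory complex I, was 6.16, 6.21 and 6.67 on the KO cold arrays and 7.11, 7.20 and 7.43 on the KO room-temperature arrays. The WT signal was 6.73, 6.68 and 6.53 on the WT cold arrays and 7.26, 7.17 and 7.49 on the WT room-temperature arrays. No cold array reached a room-temperature array of its genotype. The differences were -0.90 ± 0.16 (adjusted p = 0.00189) in KO and -0.66 ± 0.16 (adjusted p = 0.0125) in WT, and the WT call was lost without WT room-temperature replicate 3 (-0.57, adjusted p = 0.0508) or WT cold replicate 3 (-0.60, adjusted p = 0.056).

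Acad11, a dehydrogenase of peroxisomes that can take up hydroxylated acyl chains, was 9.67, 9.92 and 9.94 on the KO cold arrays and 10.44, 10.13 and 10.44 on the KO room-temperature arrays. WT mice had 9.79, 9.81 and 9.84 on the WT cold arrays and 10.91, 10.58 and 10.64 on the WT room-temperature arrays. The groups did not overlap in either genotype. The differences were -0.49 ± 0.14 (adjusted p = 0.0252) in KO and -0.89 ± 0.14 (adjusted p = 8.99e-04) in WT, and the interaction did not pass (0.40 ± 0.20, adjusted p = 0.505). The KO call was lost without KO room-temperature replicate 1 (-0.44, adjusted p = 0.0856), KO room-temperature replicate 3 (-0.44, adjusted p = 0.0883) or KO cold replicate 1 (-0.41, adjusted p = 0.0831). It was also lost with centred arrays (adjusted p = 0.0673) and in the 6 KO arrays alone (adjusted p = 0.0855). Acads fell in KO (-0.63 ± 0.20, adjusted p = 0.0419; not in 9 of 12 fits without 1 array, adjusted p up to 0.153) and over both genotypes (-0.51 ± 0.14, adjusted p = 0.0157), and with the muscle covariate the value over both genotypes was -0.40, adjusted p = 0.0546. Its KO call was also lost with centred arrays (adjusted p = 0.0921) and in the 6 KO arrays alone (adjusted p = 0.129).

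The medium-chain enzyme Acadm was 11.94, 12.46 and 12.56 on the KO cold arrays and 12.62, 12.58 and 12.55 on the WT cold arrays. At room temperature it was 12.61, 12.75 and 12.91 on the KO room-temperature arrays and 12.89, 12.76 and 12.94 on the WT room-temperature arrays. The brightest probe set of each array read 13.37 to 13.52, close above Acadm. Hadh, Acaa2 and Etfb, with means of 12.8, 12.4 and 12.1 over the 12 arrays, lay near that level too. Whether this narrows the differences of such bright genes was not tested. The long-chain enzyme Acadl was 11.48, 11.62 and 11.79 on the KO cold arrays and 11.82, 11.71 and 11.75 on the WT cold arrays, and at room temperature 11.84, 11.84 and 11.92 on the KO room-temperature arrays and 12.02, 12.03 and 12.08 on the WT room-temperature arrays. Cold and room-temperature arrays of one genotype did not overlap for Acadl or Acadm. Acad10 was 6.11, 6.67 and 6.83 on the KO cold arrays and 6.65, 6.42 and 6.31 on the WT cold arrays, and at room temperature 7.16, 6.92 and 6.72 on the KO room-temperature arrays and 6.87, 6.91 and 6.75 on the WT room-temperature arrays, with overlap in KO. Over both genotypes the differences were -0.36 ± 0.11 (adjusted p = 0.0337) for Acadm, -0.26 ± 0.08 (adjusted p = 0.0298) for Acadl and -0.39 ± 0.13 (adjusted p = 0.0424) for Acad10. None of these 3 passed with the muscle covariate (adjusted p of 0.112, 0.0778 and 0.0693) or with each array centred on its median (0.0644, 0.0764 and 0.0606), and leaving out 1 array ended the calls in 7, 7 and 8 of 12 ways. Acadvl, the enzyme for very long chains, was 9.27, 10.35 and 10.33 on the KO cold arrays and 10.27, 10.29 and 10.36 on the KO room-temperature arrays, with KO cold replicate 1 far below the other arrays, and it stood at -0.23 ± 0.16 (adjusted p = 0.364).

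**Figure D5:**
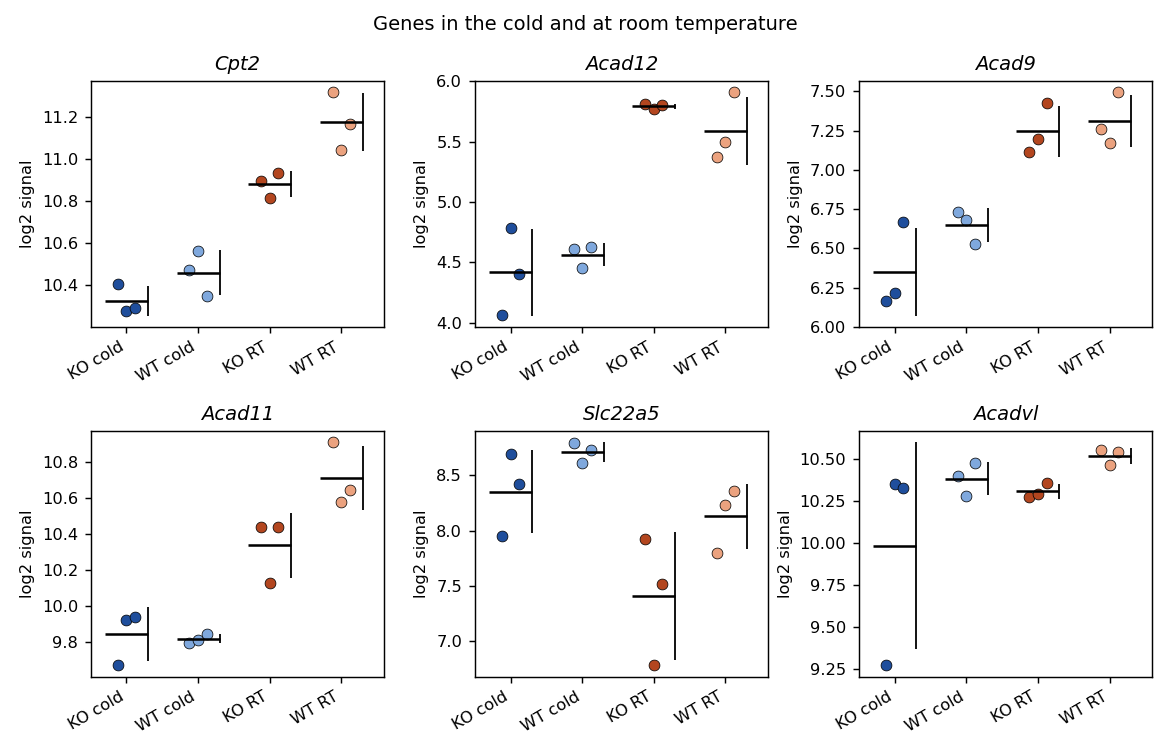
Points are log2 signals of single arrays, horizontal bars group means and vertical lines the SD (n = 3), with axes that differ between genes and do not start at 0. Cpt2, Acad12, Acad9 and Acad11 are lower and Slc22a5 higher in the cold in each genotype, and for Acadvl the KO cold replicate at 9.27 lies apart from every other array.

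In the core spiral 1 of 5 genes passed over both genotypes, or 20%, against 51.9% of all genes averaging 5 or more. All 5 were below 0 in KO and in WT, where 49.5% and 52.3% of all genes were. All cold arrays lay below all room-temperature arrays for 3 of the 5 in KO and 3 in WT. Of all genes 17.2% and 18% did so. Echs1, the enoyl-CoA hydratase for short chains, was 9.73, 10.52 and 10.83 on the KO cold arrays and 10.93, 11.09 and 11.29 on the KO room-temperature arrays. Its WT signal was 10.76, 10.66 and 10.61 on the WT cold arrays and 11.00, 11.03 and 11.31 on the WT room-temperature arrays. The groups did not overlap, and KO cold replicate 1 was the lowest array. It fell over both genotypes (-0.59 ± 0.16, adjusted p = 0.0166) and in KO (-0.74 ± 0.23, adjusted p = 0.04), where it stood at -0.43, adjusted p = 0.0978 without KO cold replicate 1 and was lost in 10 of 12 fits without 1 array; with the muscle covariate the value over both genotypes was -0.49, adjusted p = 0.0566. The KO call for Echs1 was also lost with centred arrays (adjusted p = 0.0749) and in the 6 KO arrays alone (adjusted p = 0.138). The short-chain hydroxyacyl-CoA dehydrogenase Hadh (-0.13), the thiolase Acaa2 (-0.17) and Hadha (-0.14) and Hadhb, the side-by-side genes of the trifunctional protein, did not pass. All 3 genes of electron transfer, Etfa (-0.32), Etfb (-0.097) and Etfdh (0.09), did not pass either. The 15 genes that passed in none of the 7 comparisons had cold differences over both genotypes from -0.32 to 0.11.

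Of the auxiliary enzymes 3 of 6 fell over both genotypes and 0 rose, and 50% passing lies near the 51.9% that passed in either direction among all genes averaging 5 or more. Eci1 was 10.64, 10.95 and 10.94 on the KO cold arrays and 11.26, 11.15 and 11.25 on the KO room-temperature arrays. The WT values were 11.00, 10.86 and 10.87 on the WT cold arrays and 11.50, 11.44 and 11.41 on the WT room-temperature arrays. Again the groups did not overlap. It fell in KO (-0.38 ± 0.12, adjusted p = 0.0443), though not in 11 of 12 fits without 1 array (adjusted p up to 0.138), with the muscle covariate (adjusted p = 0.0567), with centred arrays (adjusted p = 0.149) or in the 6 KO arrays alone (adjusted p = 0.145), and in WT (-0.54 ± 0.12, adjusted p = 0.00791), there under every alternative setting. Echdc3, an enoyl-CoA hydratase relative, was 6.01, 6.63 and 6.95 on the KO cold arrays and 7.43, 7.45 and 7.32 on the KO room-temperature arrays. In WT it was 7.10, 6.87 and 6.82 on the WT cold arrays and 7.27, 7.35 and 7.66 on the WT room-temperature arrays. Neither pair overlapped, and the fall passed in KO (-0.87 ± 0.21, adjusted p = 0.0103) and over both genotypes (-0.69 ± 0.15, adjusted p = 0.00344) but not in WT (-0.50 ± 0.21, adjusted p = 0.126). The KO call for Echdc3 was lost in the 6 KO arrays alone (adjusted p = 0.0527). Decr1, the mitochondrial 2,4-dienoyl-CoA reductase, was 8.58, 8.50 and 8.61 on the KO cold arrays and 8.50, 8.57 and 8.58 on the WT cold arrays, and at room temperature 8.71, 8.71 and 8.93 on the KO room-temperature arrays and 8.85, 8.90 and 9.12 on the WT room-temperature arrays. The cold arrays lay below the room-temperature arrays in both genotypes. It fell over both genotypes (-0.31 ± 0.085, adjusted p = 0.0152). In KO it stood at -0.22 ± 0.12 (adjusted p = 0.255), and in WT it fell (-0.41 ± 0.12, adjusted p = 0.0357), where it was lost in 5 of 12 fits without 1 array (adjusted p up to 0.123), with the muscle covariate (-0.37, adjusted p = 0.104) and in the 6 WT arrays alone (adjusted p = 0.0522). Eci2 and Echdc2 did not pass, and Eci3 stood at -0.36 ± 0.23 (adjusted p = 0.337) in KO and -0.13 ± 0.23 (adjusted p = 0.783) in WT.

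Over both genotypes Acsl4 had the largest rise and Acad12 the largest fall in the cold of these 34 genes, and their promoter windows are given in the same form as above. The Acsl4 window is chrX:142390486-142390785 on the minus strand with a GC content of 71.7%, and the Acad12 window is chr5:121618889-121619188 on the minus strand with 72%.
Acsl4: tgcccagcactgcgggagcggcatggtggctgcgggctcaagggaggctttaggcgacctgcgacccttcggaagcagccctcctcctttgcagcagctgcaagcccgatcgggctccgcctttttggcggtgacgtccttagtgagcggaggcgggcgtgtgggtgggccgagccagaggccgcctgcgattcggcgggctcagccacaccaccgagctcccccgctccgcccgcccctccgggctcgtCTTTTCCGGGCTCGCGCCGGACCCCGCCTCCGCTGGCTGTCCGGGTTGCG
Acad12: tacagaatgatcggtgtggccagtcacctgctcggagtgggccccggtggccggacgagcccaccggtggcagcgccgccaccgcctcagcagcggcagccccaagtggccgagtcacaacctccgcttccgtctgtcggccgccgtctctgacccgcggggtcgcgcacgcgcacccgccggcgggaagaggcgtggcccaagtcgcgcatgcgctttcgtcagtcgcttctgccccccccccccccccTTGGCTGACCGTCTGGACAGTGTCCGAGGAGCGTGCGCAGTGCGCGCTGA

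RefSeq start-site windows were listed for 30 of the 34 measured genes and searched on both strands for 3 motifs. The cAMP response element TGACGTCA was in the windows of 0 of the 30 and of 2.03% of all 27025 genes with a window. The estrogen-related receptor element TCAAGGTCA was in that of 1 of the 30, Acsl6, and in 0.466% of all genes; its last letters are the AGGTCA of the next motif. A direct repeat of the core AGGTCA with 1 base between the copies and at most 1 mismatch over both, the form bound by PPAR and RXR, was in 0 of the 30 and in 0.644% of all genes. These letters were looked for in 300 bases per window alone.

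Whether the knockout altered the cold response of these genes was asked by the interaction, in which a positive value means a higher cold difference in KO. By limma 0 of the 34 passed, where 0.0271% of all genes did, and 1 had an unadjusted p under 0.05, where 10.5% of all genes did. That gene was Acsl5 (-0.81 ± 0.28, adjusted p = 0.343, 95% interval -1.41 to -0.21). The 34 values ran from -0.81 to 0.40 with a median of 0.004, and 17 were below 0. Over all genes the median was -0.011, and over those averaging 5 or more it was -0.109, with 63.6% below 0. Acads (-0.85 to 0.37) and Cpt2 (-0.20 to 0.52) had 95% intervals that span 0.

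Other genes of the pathway, outside the 34, were taken from 3 lists. Of 17 listed genes of transport, malonyl-CoA synthesis and related acyl-CoA metabolism, 16 were measured, and 2 were higher and 7 lower in the cold over both genotypes. For this and the next lists, 12.9% of all genes were higher and 14.3% lower, and 26% and 25.9% of those averaging 5 or more; 51.9% of the brighter genes passed in either direction. Acaca, the acetyl-CoA carboxylase that makes malonyl-CoA in the cytosol, fell by 1.88 on the log2 scale (adjusted p = 2.21e-05) and Acacb, the mitochondrial form, by 0.65 (adjusted p = 3.10e-04). Slc27a2, a fatty acid transporter with synthetase activity, rose (0.81 ± 0.13, adjusted p = 3.80e-04). Peroxisomal oxidation had 0 of 13 higher and 9 lower, or 69.2% passing, among them the carnitine octanoyltransferase Crot (-1.46 ± 0.11, adjusted p = 1.70e-06) and the importer Abcd2 (-1.86 ± 0.25, adjusted p = 1.14e-04). Of 17 regulators 2 rose, Ppargc1a, the coactivator of mitochondrial genes (2.66 ± 0.088, adjusted p = 4.50e-09), and Nrf1 (0.43 ± 0.11, adjusted p = 0.00921), and 6 fell, including Esrrg (-1.07 ± 0.20, adjusted p = 0.00158), Rxra (-0.47 ± 0.087, adjusted p = 0.00127) and Ppara (-0.42 ± 0.14, adjusted p = 0.0389). Passing regulators made up 47.1%, near the background of brighter genes.

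Between genotypes, over both temperatures, 1 of the 16, 1 of the 13 and 0 of the 17 passed, both calls being lower in KO, where 0.834% of all genes were lower and 0.794% higher, and 3% of those averaging 5 or more passed in either direction. Slc25a20, the carrier that takes acylcarnitine across the inner mitochondrial membrane, was 10.46, 10.73 and 10.51 on the KO cold arrays and 10.99, 10.93 and 10.95 on the WT cold arrays. Without cold it was 10.32, 10.18 and 10.28 on the KO room-temperature arrays and 10.76, 10.71 and 10.93 on the WT room-temperature arrays. The KO arrays lay below the WT arrays at both temperatures, and the difference was -0.47 ± 0.083 (adjusted p = 0.0171). Decr2, the peroxisomal 2,4-dienoyl-CoA reductase, was 7.58, 8.45 and 8.78 on the KO cold arrays and 9.29, 9.08 and 9.13 on the WT cold arrays. Its room-temperature signal was 9.22, 8.89 and 9.03 on the KO room-temperature arrays and 9.91, 9.93 and 9.75 on the WT room-temperature arrays. It too was lower on every KO array than on the WT arrays of the same temperature, with a difference of -0.86 ± 0.17 (adjusted p = 0.0276).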

How the data were processed

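RNA of 12 brown adipose tissue samples was hybridised to Affymetrix whole-transcript arrays. The deposited values are log2 signals per probe set; per the submitters' processing notes the authors used oligo, RMA and limma, with versions and build not given in the sources used here. Of 41345 probe sets, 23521 carried 1 gene symbol in the platform annotation, 1814 several and 16010 none listed; the brightest per gene gave 22180 genes, with no filter on low signal. The precision is limited by 3 arrays per group. Differences were tested with limma 3.58.1 in R 4.3.3 (lmFit and eBayes, 1 mean per group over all 12 arrays, two-sided, Benjamini-Hochberg over all genes within each of 7 comparisons, adjusted p under 0.05); intervals are 95% and not adjusted. The fit was tested on simulated data. Alternatives changed the probe sets, low-signal filter, normalization, centring, spread estimate, replicate block, arrays, muscle covariate and single arrays. The genes, role lists, pathway lists and marker lists were chosen with earlier results of these data known. Genes that passed in any comparison are given on every array; at most 3 others per role are named with values, the brightest first. Promoter windows are from RefSeq, build GRCm38.p6.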

Additional observations from a re-analysis of the deposited data

How the results depend on the processing

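Of 45 calls of single genes, 25 were kept under all alternatives, 20 were lost in at least 1 and 0 changed sign. KO against WT at room temperature kept 1 gene under every alternative and the interaction 0. For KO against WT in the cold, 1 gene passed as deposited, 5 with genes of a mean signal of at least 5 alone (adding Acsl4, Acsl5, Acads and Cpt1a, with fewer genes tested), 2 after cyclic loess, 2 with a trended and robust spread and 1 to 3 when single arrays were left out. Over both temperatures 4 passed, against 2 with the replicate block, 2 with the muscle covariate and 2 to 4 with single arrays left out. In the cold 12 passed in KO, against 15 with genes of a mean of at least 5 alone, 14 with the trended and robust spread, 13 after cyclic loess, 8 with centred arrays, 4 in the 6 arrays of the comparison alone and 6 to 11 with single arrays left out. In WT 10 passed, against 12 with the mean of at least 5, 12 with the trended and robust spread, 11 in the 6 arrays alone and 6 to 11 with single arrays left out. Over both genotypes 17 passed, against 14 with arrays centred on their medians, 12 with the muscle covariate and 14 to 18 with single arrays left out. The cause of these changes was not tested. Of all genes called in KO against WT at room temperature 48.4% were higher, against 30.9% with centred arrays; in the cold the split was 39.6%, against 55.5% after cyclic loess, and for cold in KO 43.5%, against 54.2% with centred arrays. Centring moved the median interaction of all genes by 0.103. Samples with the same replicate number had deviations correlated from -0.537 to 0.451, so the numbers were not taken as pairs. With the replicate block the numbers passed were 1 (genotype effect without cold), 1 (genotype effect in cold mice), 2 (genotype effect over both), 11 (cold in KO), 9 (cold in WT), 17 (cold over both genotypes) and 0 (interaction). The block ended the calls of Cpt1a (adjusted p = 0.0554) and Acads (adjusted p = 0.0505) over both temperatures, of Eci1 in KO (adjusted p = 0.0751), of Acsf3 in WT (adjusted p = 0.0518) and of Acad10 over both genotypes (adjusted p = 0.0688), with limma throughout.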
